A study of Mus musculus with 13 samples.

Results

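Keratin-associated proteins are small matrix proteins of the hair shaft, and the genes that encode them carry the mouse symbol prefix *Krtap*. They fill the space between the keratin filaments in the cortex and cuticle of the hair, where cysteine residues link them to the filaments and to each other through disulfide bonds. By composition they fall into high sulfur, ultra-high sulfur and high glycine-tyrosine proteins, and their genes lie in clusters that are switched on late in the differentiation of hair shaft cells, after the hair keratins. In the first postnatal days the follicles of mouse back skin are in their first growth phase, and shafts are being built. Every gene with the *Krtap* prefix in the count files of P4 (postnatal day 4) skin was considered, and a gene was kept when it had at least 10 raw reads in at least 3 of the 6 libraries. Of 57 such genes, among 49315 genes in all, 54 were kept, and 52 of them reached 10 reads in all 6 libraries. The 3 genes below the minimum were *Krtap13*, *Krtap9-5* and *Krtap20-2*.

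The samples were full-thickness back skin of P4 mice, profiled by RNA-Seq after depletion of ribosomal RNA. The DKO group held 3 mice of genotype *K14Cre+Kctd1fl/flKctd15fl/fl*, in which Cre under the keratin 14 promoter removes an exon of *Kctd1* and an exon of *Kctd15* from keratinocytes, including those of the hair follicle, but not from dermis, muscle or fat. The WT group held 3 littermates; their label gives no allele beyond WT. KCTD1 and KCTD15 are paralogous proteins that bind each other and repress AP-2 transcription factors, and the comparison asks what their joint loss in keratinocytes changes in young skin. In whole skin, fewer hair shaft cells and less RNA per hair shaft cell cannot be told apart.

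Library totals ran from 11263863 to 17643043 counts, and the smallest total belonged to DKO replicate 1. That library stands apart in the results below, so values are also given without it. Its label and that of WT replicate 3 share the number 40972, while the other 2 WT and 2 DKO libraries share 47347; what the number marks is not given in the sources used here. The whole-gene counts do not resolve the deleted exons, and neither targeted gene was lower: *Kctd15* had 736, 737 and 763 TMM-normalized counts in WT and 1131, 1509 and 1325 in DKO, and *Kctd1* had 443, 410.0 and 442 in WT and 506, 985 and 735 in DKO, so these counts do not check the genotype labels. A TMM-normalized count is the raw count scaled by edgeR's trimmed mean of M-values to the mean library size. Counts from 3 mice a group give p-values that measure the spread among these mice only.

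The 54 genes were sorted by the codons of their annotated coding sequence. Cysteine made over 30% of codons in 15 ultra-high sulfur genes, and between 10% and 30% in 14 high sulfur genes. Glycine and tyrosine together made at least 35% in 14 high glycine-tyrosine genes, with up to 69.2% in *Krtap6-1*. Genes that met this 35% limit with cysteine between 10% and 30%, such as the *Krtap6* genes, were placed in this class. *Krtap5-2*, *Krtap5-3*, *Krtap28-10* and *Krtap28-13* had over 30% cysteine and also met the 35% glycine-tyrosine limit, and were kept apart. They met the 35% limit on glycine alone and hold no tyrosine codons. *Krtap7-1*, *Krtap13-1*, *Krtap14*, *Krtap15*, *Krtap24-1* and *Krtap27-1* met neither limit, and *Krtap19-9a* has no annotated coding sequence. The composition followed genome position: 22 members lie on chromosome 11, where all are of the high or ultra-high sulfur class, and 23 on chromosome 16, which holds all 14 high glycine-tyrosine genes. Another 5 lie on chromosome 7, 2 on chromosome 10 and 2 on chromosome 1 (GRCm38). A single exon is annotated for 49 of the 54.

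RefSeq holds a start site for 48 of the 54 members on GRCm38.p6. In the window from 250 bases before to 50 after that site, the TATA box letters TATAAA (either strand) were present in 39 of 48 members, or 81.25%, against 15.67% of the promoters of all 27025 genes. On the sense strand, between 40 and 20 bases before the start, they stood in 60.42% of the members and 2.25% of all genes. Letters of the HOXC13 type were also searched, because HOXC13 is a homeobox factor of the hair matrix and cortex that acts on hair keratin and *Krtap* genes. These were TTTATNAA, TTTATNAG, TTTATNGA, TTTATNGG, TTAATNAA, TTAATNAG, TTAATNGA and TTAATNGG on either strand, and they were found in 50% of members and 21.41% of all genes, or 45.83% and 18.25% when a match overlapping TATAAA was not counted. Letters of the LEF1 type, the Wnt-pathway factor, were CTTTG followed by either A or T at each of the next 2 positions, and were found in 37.5% of members and 18.95% of all genes. A match is a description of letters and not of binding. The 100 bases before the start are shown for several members, with TATAAA in capitals. The first is the member with the highest level (*Krtap3-1*), followed by a pair of *Krtap4* genes with almost the same promoter. A high glycine-tyrosine gene and 3 genes whose values did not overlap between WT and DKO come after them.
Krtap3-1: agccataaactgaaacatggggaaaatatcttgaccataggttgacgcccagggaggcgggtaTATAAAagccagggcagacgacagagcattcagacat
Krtap4-6: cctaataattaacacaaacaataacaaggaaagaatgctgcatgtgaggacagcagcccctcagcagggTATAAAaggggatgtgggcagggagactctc
Krtap4-9: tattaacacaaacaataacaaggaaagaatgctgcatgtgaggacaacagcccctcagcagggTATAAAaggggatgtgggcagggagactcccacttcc
Krtap19-9b: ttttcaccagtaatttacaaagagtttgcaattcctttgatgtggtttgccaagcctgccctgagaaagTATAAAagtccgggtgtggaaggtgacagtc
Krtap28-13: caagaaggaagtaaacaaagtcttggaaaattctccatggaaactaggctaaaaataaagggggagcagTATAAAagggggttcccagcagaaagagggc
Krtap5-2: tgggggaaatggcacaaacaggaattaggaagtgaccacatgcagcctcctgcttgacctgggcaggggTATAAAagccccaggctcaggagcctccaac
Krtap5-3: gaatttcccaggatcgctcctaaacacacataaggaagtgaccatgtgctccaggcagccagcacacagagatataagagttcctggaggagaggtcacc
These stretches lie at chr11:99566631-99566730 on the minus strand (*Krtap3-1*), chr11:99665961-99666060 on the minus strand (*Krtap4-6*), chr11:99785100-99785199 on the plus strand (*Krtap4-9*), chr16:88932265-88932364 on the minus strand (*Krtap19-9b*), chr1:83060830-83060929 on the plus strand (*Krtap28-13*), chr7:142176006-142176105 on the minus strand (*Krtap5-2*) and chr7:142201264-142201363 on the plus strand (*Krtap5-3*). In *Krtap4-6*, *Krtap19-9b*, *Krtap28-13* and *Krtap5-2* the first T of TATAAA stood exactly 31 bases before the start. The stretches of *Krtap4-6* and *Krtap4-9* were equal at 91 of 94 bases when shifted by 6. *Krtap5-3* does not hold these letters, and its best ungapped match to *Krtap5-2* was 42 of 94 bases.

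In WT skin the family spanned a wide range of levels. The mean per kilobase of annotated exon ran from 11.1 normalized counts for *Krtap31-2* to 15027 for *Krtap3-1*, with a median of 1641. *Krtap3-1*, a high sulfur gene, was followed per kilobase by *Krtap1-5* (9538), *Krtap7-1* (9377), *Krtap15* (7374), *Krtap9-3* (6186) and *Krtap14* (5281). *Krtap1-5* and *Krtap7-1* changed places between WT libraries, so their order is not larger than the spread. The WT mice were close to each other for most members: over the 53 members with enough counts to be tested, the ratio of the highest to the lowest WT library had a median of 1.20, and among these it exceeded 2 for *Krtap31-1*, *Krtap5-2*, *Krtap5-3* and *Krtap24-1* only, each time with WT replicate 3 highest. The remaining member, *Krtap31-2*, had 3.06, 8.49 and 19.7 normalized counts in WT, again highest in WT replicate 3. All members together took 0.642%, 0.687% and 0.652% of the counts of the WT libraries, and 0.180%, 0.810% and 0.596% of the DKO libraries.

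**Figure D1:**
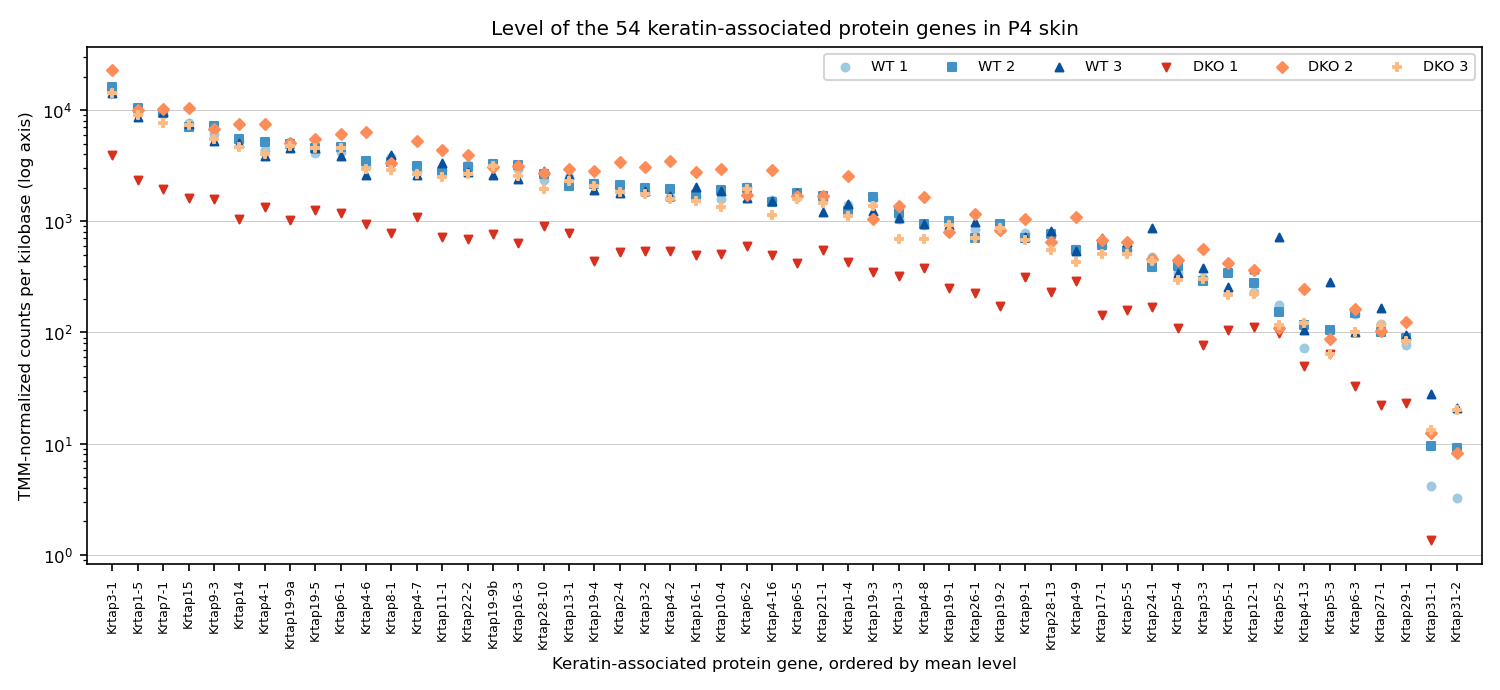
TMM-normalized counts per kilobase (log axis) for the 54 genes, ordered by mean level, with a symbol for each of the 3 WT and 3 DKO libraries; a count of 0 (Krtap31-2 in DKO 1) is not drawn. DKO 1 (triangles pointing down) lies under the other libraries for 52 of the 53 genes tested.

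Whether *Krtap* genes differ between DKO and WT skin was tested with edgeR's quasi-likelihood test over 20168 genes, and a gene was called when its Benjamini-Hochberg adjusted p was under 0.05 with a log2 fold change beyond 1 in either direction. No member was called, against 0.0694% of all genes tested (14 genes), and the lowest adjusted p among the members was 0.411. Of the 54 members, 53 had enough counts to be tested; *Krtap31-2* did not. An unadjusted p under 0.05 was reached by 3 of the 53 (*Krtap5-2*, *Krtap5-3* and *Krtap28-13*), against 7.50% of all genes. DESeq2, the tool of the study's methods, called none either (0.457% of all genes). The log2 fold change was below 0 in 46 of the 53, against 47.1% of all genes, and its median was -0.30, against 0.02 over all genes. SEs of single members ran from 0.30 to 0.76.

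The 3 DKO libraries differed from each other more than the groups did. In DKO replicate 1 all 53 members were below their WT mean, 52 were the lowest of the 6 libraries (23.6% of all genes were), and 51 had a log2 ratio to the WT mean (1 added to both) under -1 (4.49% of all genes had). The median member stood there at 0.279 of its WT mean. In DKO replicate 2 the median member was at 1.25 times its WT mean, and 32 of 53 were above every WT library, against 38.4% of all genes. In DKO replicate 3 it was at 0.900 of the WT mean, and 26 of 53 were below every WT library, against 27.9% of all genes. Without DKO replicate 1, 31 of 54 members had a log2 fold change above 0, the median was 0.09, none was called (0.174% of all genes were) and 6 had an unadjusted p under 0.05 (7.39% of all genes did).

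**Figure D2:**
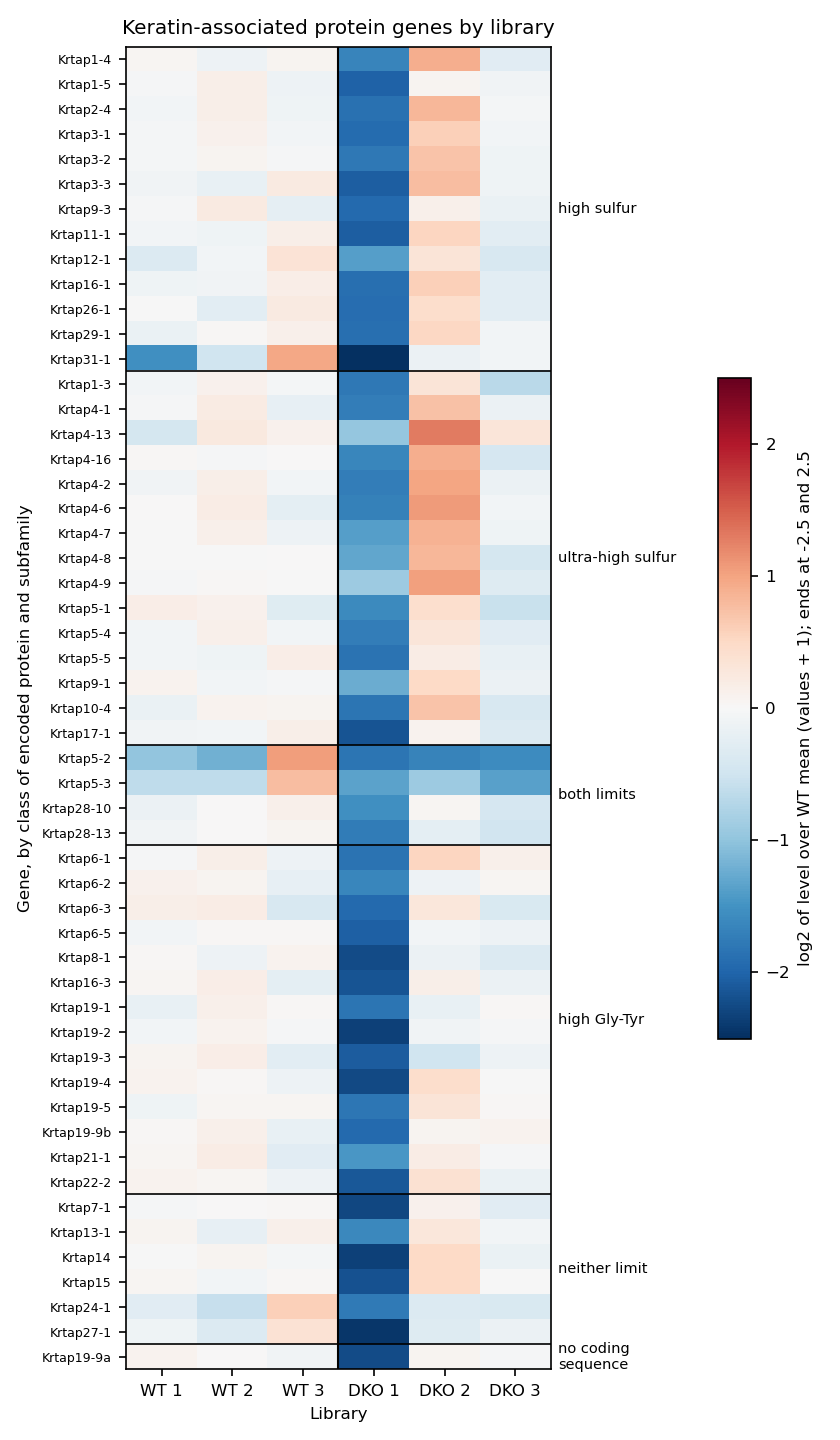
Log2 of the level in each library over the WT mean (1 added to both) for the 53 genes tested, by class of the encoded protein and subfamily; red is above and blue below the WT mean, and the color scale is cut at both ends. The DKO 1 column is blue throughout, and the DKO 2 column is red for 41 of the 53 genes and most so for Krtap4. Krtap5-2, Krtap5-3, Krtap8-1, Krtap24-1 and Krtap27-1 are among the genes blue in all 3 DKO columns. Krtap5-2 and Krtap5-3 are also blue in WT 1 and WT 2 and red only in WT 3.

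Summed over the 54 members, the normalized counts were 97144, 102899 and 97419 in the 3 WT libraries and 26688, 133629.9 and 89352 in the 3 DKO libraries. DKO replicate 1 thus held 0.269 of the WT mean, DKO replicate 2 1.35 times and DKO replicate 3 0.901 of it, and the WT range lay inside the DKO range. The group means were 99154 ± 3246 (SD, n = 3) in WT and 83223 ± 53734 (SD, n = 3) in DKO, a difference of -0.54 on the log2 scale of the group means of logs (exact permutation test, two-sided, p = 0.7; the smallest p with 3 against 3 is 0.1). Within label number 40972 (1 WT and 1 DKO library) the difference was -1.87, and within 47347 (2 against 2) it was 0.13. Without DKO replicate 1 it was 0.14.

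The hair shaft keratins, which form the filaments that these proteins embed, moved with them from library to library. The sum over 15 hair shaft keratin genes (*Krt31* to *Krt36*, *Krt39*, *Krt40*, *Krt81* to *Krt84*, *Krt86* and *Krt87*, with *Krt33* as 2 genes) was 38291, 39472 and 40093 in the 3 WT libraries and 10561, 50329 and 31889.5 in the 3 DKO libraries. Dividing the *Krtap* sum by the keratin sum gave 2.54, 2.61 and 2.43 in WT and 2.53, 2.66 and 2.8 in DKO. In DKO replicate 1 the ratio lay inside the WT range, although both of its terms were at 0.269 of the WT mean there. Its mean was 2.52 ± 0.0892 (SD, n = 3) in WT and 2.66 ± 0.138 (SD, n = 3) in DKO (exact permutation test, two-sided, p = 0.3), and the log2 difference was 0.06 within number 40972 and 0.08 within 47347. All 15 keratins had a log2 fold change below 0, their median was -0.42, and none was called; without DKO replicate 1 the median was -0.04. *Krt84* had 290.5, 332 and 205 in WT and 51.3, 235 and 208 in DKO (log2 fold change -0.73, SE 0.43, adjusted p = 0.815 by edgeR), and *Krt82*, a keratin of the hair cuticle, had 1037, 918 and 1543 in WT and 358, 1067 and 948 in DKO. Both had their lowest value in DKO replicate 1.

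**Figure D3:**
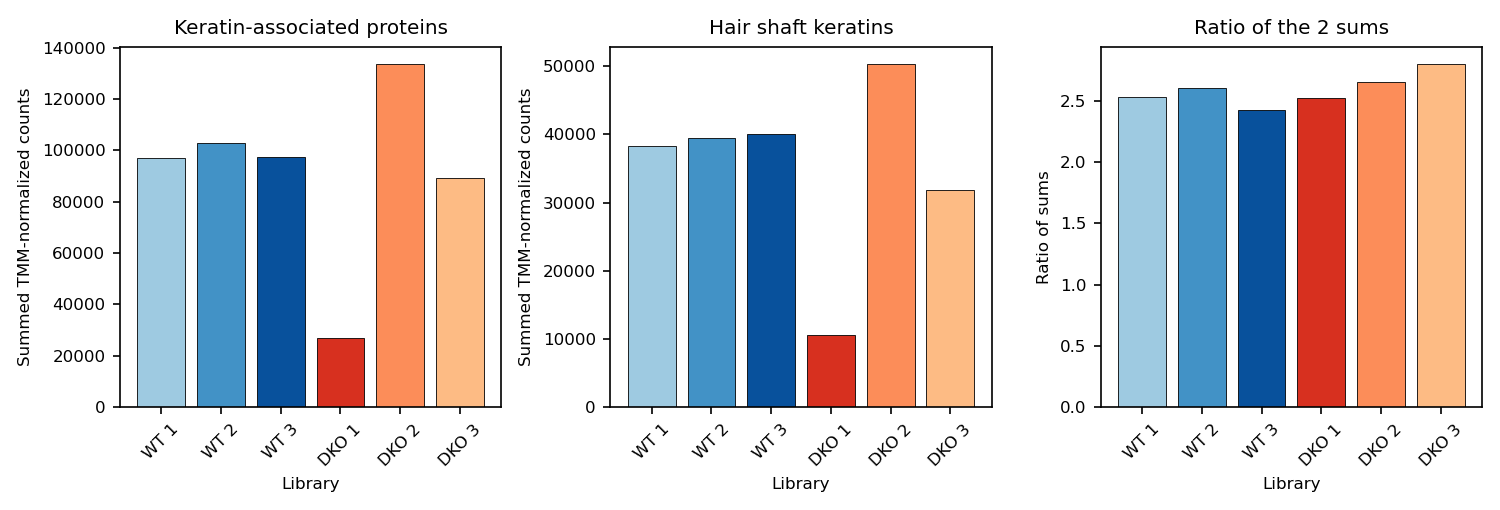
Bars give, for each library, the summed TMM-normalized counts of the 54 keratin-associated protein genes (left), those of 15 hair shaft keratins (middle) and the ratio of the 2 sums (right), all axes from 0. Both sums are low in DKO 1 and high in DKO 2, while the ratio stays between 2.43 and 2.80 in all 6 libraries.

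Other parts of the skin differed in DKO replicate 1 as well, and their part in the *Krtap* values was not tested. Summed over each marker list, that library held 0.411 of the WT mean for 14 other hair shaft genes, 0.381 for 12 inner root sheath genes, 0.753 for 18 regulators of matrix and cortex, 0.854 for 12 proliferation genes and 0.746 for 8 genes of the outer root sheath and companion layer. It held 1.29 times the WT mean for 12 genes of epidermal differentiation, 1.41 times for 12 dermal papilla genes, 1.76 times for 8 adipocyte genes and 3.32 times for 13 skeletal muscle genes, with 0.358 of it for 12 sebaceous gland genes and 0.672 for 6 melanocyte genes. The *Krtap* and hair shaft keratin sums were thus the lowest in that library relative to WT, and the muscle sum the highest. These sums are weighted to abundant genes. In DKO replicate 1 the median log2 ratio to the WT mean (1 added to both) was 0.03 for epidermal differentiation genes. It was 0.22 for dermal papilla genes, where *Vcan* made 12395 of the 20663 summed counts. WT replicate 3, of the same label number, held 0.743 of the WT mean for melanocyte genes and 1.29 times it for adipocyte genes. Muscle was also above the WT mean in DKO replicates 2 and 3 (1.52 and 1.56 times), where *Krtap* sums were 1.35 and 0.901 times it; the summed list ran from 91687 to 105270.1 in WT and from 148142 to 323101 in DKO, and all 13 of its genes had a log2 fold change above 0 (1.10 in the median, none called). Sebaceous gland genes were below it there (0.609 and 0.46), and 1 of the 12 was called, the fatty acid elongase gene *Elovl6*. In none of these lists was a tested gene at 0 in a library. Of the 17 regulators tested none was called, 8 had a log2 fold change above 0 and 9 below 0. Their sum was at 1.24 and 0.989 of the WT mean in DKO replicates 2 and 3. Within that list *Runx1*, a factor of the hair matrix and shaft, had 1768, 1769 and 1596 in WT and 2040.2, 2193 and 2039.7 in DKO (log2 fold change 0.29, SE 0.12, adjusted p = 0.579 by edgeR). Its DKO libraries were all above WT, as they were for 7.24% of all genes tested.

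The high sulfur members include the best measured genes of the family. *Krtap3-1*, encoding a high sulfur protein of the cortex, had 8832, 9748 and 8650.1 in WT and 2406, 13711 and 8687 in DKO (log2 fold change -0.13, SE 0.46, adjusted p = 0.976 by edgeR). Its DKO values enclosed the WT values, with DKO replicate 1 below and DKO replicate 2 above them. *Krtap1-5*, from the neighbouring subfamily, had 9746, 10962 and 9079.5 in WT and 2458, 10353 and 9320.5 in DKO, so that DKO replicates 2 and 3 were inside the WT range (-0.43 by edgeR on the log2 scale). *Krtap2-4* had 1521, 1765 and 1478 in WT and 438, 2809.5 and 1531 in DKO and *Krtap9-3* 4596, 5467 and 4023 in WT and 1212, 5124 and 4172 in DKO. The first stood above WT in DKO replicate 2 and the second did not, although both lie within the chromosome 11 cluster. *Krtap3-2* and *Krtap3-3* share 20.9% and 31.3% of their 150-base windows with each other. With *Krtap3-1*, all 3 members of that subfamily were above every WT library in DKO replicate 2, against 38.4% of all genes.

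High sulfur genes of other subfamilies likewise had their lowest value in DKO replicate 1. *Krtap11-1*, on chromosome 16, had 2892, 2803 and 3347 in WT and 726, 4379 and 2514 in DKO. *Krtap16-1*, with 502 codons the longest of the class, had 3190.2, 3247 and 3846 in WT and 929, 5201 and 2874 in DKO. *Krtap26-1* had 826, 691 and 961 in WT and 221, 1119.6 and 689.9 in DKO, and in all 3 genes DKO replicate 1 was lowest and DKO replicate 2 highest. *Krtap12-1* on chromosome 10 had 154, 186 and 248 in WT and 74.9, 246 and 148 in DKO, and *Krtap29-1* had 79.5, 91.7 and 97.5 in WT and 23.7, 128 and 85.6 in DKO. *Krtap31-1* was among the least counted, with 4.08, 9.34 and 27.4 in WT and 1.31, 12.1 and 12.9 in DKO, and shares 23.1% of its windows with *Krtap31-2*, so its reads could be split between both. Log2 fold changes of the 13 high sulfur genes tested ran from -0.59 to 0.01 with a median of -0.19, and without DKO replicate 1 the median was 0.22.

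Among the ultra-high sulfur members the *Krtap4* genes had the highest values relative to WT in DKO replicate 2. These genes encode cysteine-rich proteins of the cortex. *Krtap4-1*, the highest of them per kilobase, had 4471, 5266 and 3946 in WT and 1372, 7585 and 4126 in DKO. *Krtap4-6* had 2870.1, 3223 and 2404 in WT and 873, 5887 and 2704 in DKO, *Krtap4-7* had 2788, 3074 and 2566 in WT and 1079, 5137 and 2601 in DKO, and *Krtap4-2* had 1626, 1896 and 1649 in WT and 522, 3423 and 1552 in DKO. All 8 *Krtap4* genes were above every WT library in DKO replicate 2 (38.4% of all genes were), at 1.66 to 2.48 times their WT means. Outside this subfamily, only the high sulfur genes *Krtap1-4* (1.88), *Krtap2-4* (1.77) and *Krtap3-3* (1.71) lay in that range. The ultra-high sulfur gene *Krtap10-4* was just under it, at 1.65. DKO replicate 1 was below every WT library for all 8 *Krtap4* genes, as it was for every other member tested. The share of all genes for which it was so was not computed. *Krtap4-9* had 567, 585 and 572 in WT and 308, 1168 and 457 in DKO and *Krtap4-13* 59.1, 95.9 and 86.4 in WT and 40.8, 199.7 and 99.5 in DKO; with *Krtap4-2*, *Krtap4-6* and *Krtap4-7*, these are the 5 highest log2 fold changes of the family. They ran from 0.07 for *Krtap4-7* to 0.50 for *Krtap4-13* (SE 0.46, adjusted p = 0.921 by edgeR). *Krtap4-13* shares 51.2% of its windows with 2 unnamed gene models, so its counts are uncertain. For the *Krtap4* sum relative to the high glycine-tyrosine sum, a ratio within a library, the values were 0.858, 0.91 and 0.85 in WT and 1.13, 1.46 and 0.802 in DKO; the group means were 0.873 ± 0.0324 and 1.13 ± 0.327 (SD, n = 3). DKO replicate 3 lay outside the WT range on the other side, so the groups overlapped.

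The remaining ultra-high sulfur genes followed the same pattern with smaller values in DKO replicate 2. *Krtap10-4*, of a subfamily active in the hair cuticle, had 1568, 1858 and 1844 in WT and 497, 2893 and 1325 in DKO. *Krtap5-5*, likewise of a cuticle subfamily, had 644, 629.8 and 759.7 in WT and 187, 772 and 599 in DKO. Both had DKO replicate 1 far below WT and DKO replicate 2 above it. *Krtap9-1* had 817, 742 and 759 in WT and 329, 1096 and 702 in DKO, *Krtap1-3* 922, 1042 and 935 in WT and 280.0, 1207 and 608 in DKO, and *Krtap17-1* 459.7, 466 and 543 in WT and 109, 519.5 and 387 in DKO. Of all 15 ultra-high sulfur genes, 14 were above every WT library in DKO replicate 2 (*Krtap17-1* was not), against 38.4% of all genes. In DKO replicate 3, 11 were below every WT library, against 27.9% of all genes. The median log2 fold change of the 15 was -0.06, and 0.30 without DKO replicate 1.

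All 14 high glycine-tyrosine members had a log2 fold change below 0, with a median of -0.40 that was -0.02 without DKO replicate 1. *Krtap6-1*, whose protein is rich in glycine and tyrosine and belongs to the cortex, had 2469.6, 2769 and 2317 in WT and 702, 3636 and 2733 in DKO (-0.09 on the log2 scale). *Krtap8-1* had 2176, 1959 and 2269.7 in WT and 454, 1937 and 1677 in DKO (log2 fold change -0.65, SE 0.40, adjusted p = 0.83 by edgeR; unadjusted p = 0.137). All DKO values of *Krtap8-1* lay below all WT values, and without DKO replicate 1 its log2 fold change was -0.26. *Krtap19-3* had 826, 878 and 649 in WT and 184, 552 and 719.7 in DKO (log2 fold change -0.69, SE 0.38, adjusted p = 0.791), and its DKO replicate 3 lay inside the WT range. *Krtap19-5*, the highest coding member of its subfamily per kilobase, had 2003, 2214 and 2217 in WT and 609, 2677 and 2189 in DKO. *Krtap16-3*, *Krtap21-1* and *Krtap22-2*, each on chromosome 16, had DKO replicate 1 at 0.225, 0.366 and 0.23 of the WT mean and DKO replicate 2 at 1.11, 1.14 and 1.3 times it. In DKO replicate 2, 5 of the 14 were above every WT library, against 38.4% of all genes. A further 4 were below every one, for which the share of all genes was not computed. *Krtap19-9a*, with no annotated coding sequence, had 863, 825 and 765 in WT and 172, 856 and 797 in DKO, much as the coding genes beside it.

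Of the 6 genes that met neither limit, *Krtap7-1*, *Krtap14* and *Krtap15* are among the most highly counted members and lie on chromosome 16. *Krtap7-1* had 5689, 5831 and 5920.1 in WT and 1207, 6285 and 4770.2 in DKO, *Krtap14* had 4646, 4918 and 4506 in WT and 925, 6656 and 4152 in DKO and *Krtap15* had 7998, 7387 and 7886 in WT and 1705, 11001 and 7696 in DKO. Their DKO replicate 1 values were 0.208, 0.197 and 0.22 of the WT mean, below the family median of 0.279. *Krtap13-1* had 1875, 1553 and 1969 in WT and 588, 2185 and 1725 in DKO and *Krtap27-1* 76.4, 65.4 and 107 in WT and 14.5, 66.2 and 74.7 in DKO. *Krtap24-1* had 748, 607 and 1361 in WT and 264, 713 and 692 in DKO (log2 fold change -0.70, SE 0.38, adjusted p = 0.785 by edgeR). WT replicate 3 was by far its highest library; without that library its log2 fold change was -0.30, and within label number 47347 it was 0.03.

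Of the 4 genes that met both limits, 3 had all DKO values below all WT values, against 5.96% of all genes tested. Over the whole family 4 of 53 had. *Krtap5-2* had 259.9, 223 and 1060.0 in WT and 145, 159.9 and 173 in DKO. The DKO values were close to each other, and WT replicate 3 was far above the other 2 WT libraries. Its log2 fold change was -1.69 (SE 0.52, unadjusted p = 0.00946, adjusted p = 0.411 by edgeR), -1.64 without DKO replicate 1, -0.61 without WT replicate 3 and -0.55 within label number 47347. *Krtap5-3* had 174, 175 and 468 in WT and 106, 146 and 106 in DKO, again with no overlap and with WT replicate 3 highest. Its log2 fold change was -1.19 (SE 0.38, unadjusted p = 0.0105, adjusted p = 0.423 by edgeR), -1.14 without DKO replicate 1, -0.56 without WT replicate 3 and -0.50 within 47347. Neither was called, except when no filter on low counts was used (0.229% of all genes were then called lower; adjusted p = 0.000513 for *Krtap5-2* and 0.00632 for *Krtap5-3* by edgeR); over all alternatives their adjusted p ran from 0.000513 to 0.924 and from 0.00632 to 0.938.

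The other *Krtap5* genes did not share this pattern: *Krtap5-1* had 271, 262 and 196 in WT and 80.2, 324 and 164 in DKO, and *Krtap5-4* had 361, 417 and 360.2 in WT and 114, 467 and 312 in DKO, with DKO replicate 2 above WT in both. *Krtap28-13* on chromosome 1 had 724, 767 and 805 in WT and 227, 645 and 547 in DKO (log2 fold change -0.69, SE 0.30, adjusted p = 0.66 by edgeR; unadjusted p = 0.0479). Its WT libraries were close together, all DKO values lay below them, and without DKO replicate 1 the log2 fold change was -0.38 (SE 0.15, adjusted p = 0.634). *Krtap28-10*, beside it, had 2248, 2536 and 2722 in WT and 869, 2582 and 1865 in DKO, and DKO replicate 2 lay inside the WT range. In all, 4 of the 53 members had DKO values entirely below WT (*Krtap5-2*, *Krtap5-3*, *Krtap8-1* and *Krtap28-13*) and none entirely above, against 5.96% and 7.24% of all genes.

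**Figure D4:**
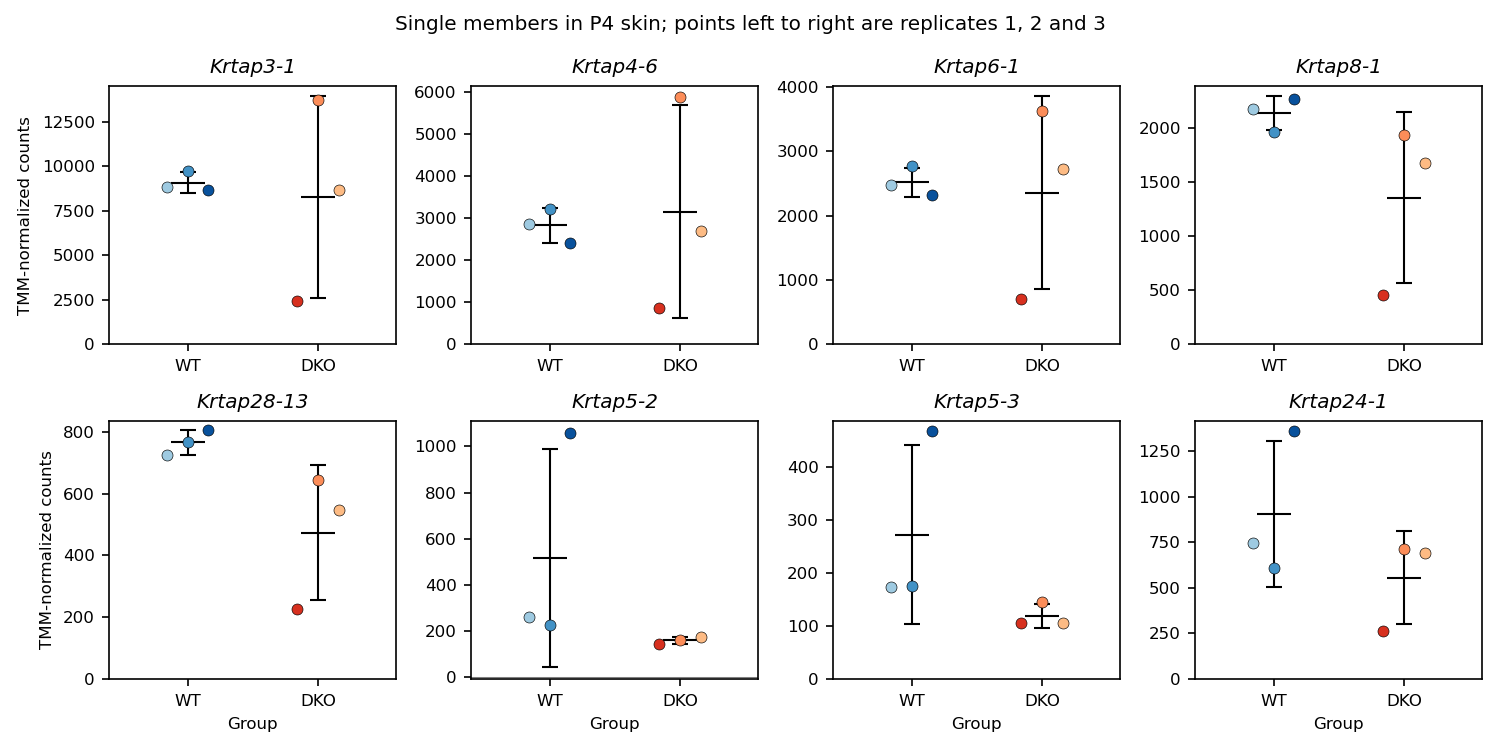
TMM-normalized counts of 8 members, points for the libraries of WT and DKO with replicates 1, 2 and 3 from left to right, and the mean with its SD (n = 3); axes start at or just under 0. In Krtap3-1, Krtap4-6 and Krtap6-1 the DKO points lie on both sides of WT, in Krtap8-1, Krtap28-13, Krtap5-2 and Krtap5-3 all lie below, and in Krtap5-2, Krtap5-3 and Krtap24-1 the third WT point is far above the others.

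By class, DKO replicate 1 was low throughout, and the classes differed more in DKO replicate 2. The median log2 ratio to the WT mean (1 added to both) in DKO replicates 1, 2 and 3 was -1.90, 0.54 and -0.11 for high sulfur genes. For ultra-high sulfur genes it was -1.70, 0.73 and -0.28, and for high glycine-tyrosine genes -1.99, 0.11 and -0.03. Thus in DKO replicate 2 the ultra-high sulfur sum was 1.73 times its WT mean, the high sulfur sum 1.34 times and the high glycine-tyrosine sum 1.11 times. The ultra-high sulfur sum over the high glycine-tyrosine sum was 1.15, 1.21 and 1.19 in WT and 1.49, 1.84 and 1.05 in DKO. It was above WT in DKO replicates 1 and 2 and below it in DKO replicate 3, so it does not separate the genotypes. For genes meeting both limits the medians were -1.64, -0.57 and -0.92, and for those meeting neither -2.23, 0.20 and -0.16. Genes meeting both limits also differed among the WT libraries, with medians of -0.40, -0.32 and 0.45 in WT replicates 1, 2 and 3. By chromosome, 17 of 21 tested members on chromosome 11 and 11 of 23 on chromosome 16 were above every WT library in DKO replicate 2. The share of all genes was 38.4%. Members of a class or cluster share position and sequence and are not replicates, so no test was run between them.

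**Figure D5:**
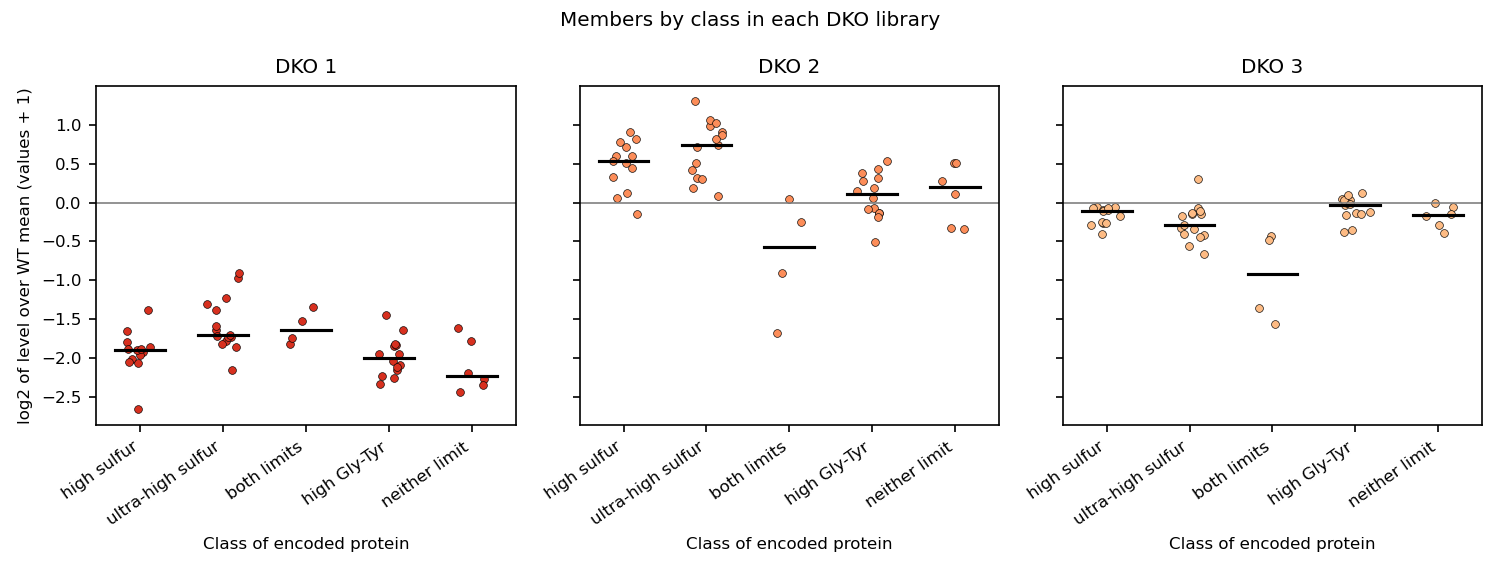
Log2 of the level over the WT mean (1 added to both) in each DKO library, a point for each gene tested, by class of the encoded protein; the line is the class median and the grey line marks the WT mean. Class medians in DKO 1 run from -2.23 (neither limit) to -1.64 (both limits). In DKO 2 the high sulfur and ultra-high sulfur medians (0.54 and 0.73) are above that of high glycine-tyrosine genes (0.11).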

How the data were processed

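Total RNA of whole skin was depleted of ribosomal RNA and sequenced as 150 bp read pairs. The authors trimmed reads with Trimmomatic 0.36, aligned them to GRCm38 with STAR 2.5.2b and deposited raw counts per gene from featureCounts (Subread 1.5.2); strand setting and the treatment of reads with several matches are not given in the sources used here. The files of 3-week epidermis listed 0 for every gene and were not used. Symbols, exons and coding sequences came from GENCODE M21, and promoters from RefSeq (GRCm38.p6).

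Counts were filtered with filterByExpr, TMM-scaled and tested with edgeR 4.0.16 over all genes (quasi-likelihood F-test, Benjamini-Hochberg adjustment), with DESeq2 1.42.0 as an alternative. Sums per library were compared by exact permutation. A gene's sequence was called shared where a 150-base window of its exons occurs in another gene. Such windows were found in 14 of the 54 members, including *Krtap9-1* (22.8% of windows), *Krtap2-4* (19.7%), *Krtap5-1* (19.2%) and *Krtap10-4* (10.7%). How reads from those windows were counted is not known. The limits for protein classes were 10% and 30% for cysteine and 35% for glycine and tyrosine. Over both the 30% and the 35% limit were 4 genes, which were set apart after seeing this. Genes that met the 35% limit with 10% to 30% cysteine were classed as high glycine-tyrosine. Members, marker lists and motifs were chosen with earlier results of these data known. Members named are the highest per kilobase of each subfamily, the 5 with the smallest p and the 5 with the highest and lowest log2 fold changes; others named were chosen after their values were seen. Of the marker lists, the 2 genes with the smallest p could be named. Intervals and floors cover counting error only.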

Additional observations from a re-analysis of the deposited data

How the results depend on the processing

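No alternative gave a called member, except that edgeR without a filter on low counts called 2 (*Krtap5-2* and *Krtap5-3*). Over all genes 14 were called, 154 with DESeq2, 22 with scaling to total counts, 210 without the filter, 65 with DESeq2 without DKO replicate 1, 9 within label number 47347 alone, 150 with DESeq2 and the replicate block, and between 2 and 36 with 1 library left out. The number 47347 alone and both DESeq2 alternatives of DKO replicate 1 and the block were chosen after seeing the data. With label numbers as a replicate block, 35 genes were called and no member, and the median over members was -0.50; same-number WT and DKO libraries correlated in their deviations at -0.02 to 0.22 and the others at -0.14 to -0.10, and the number's meaning is not stated.

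The log2 difference of the summed level reversed to 0.14 without DKO replicate 1, and over libraries left out ran from -1.02 to 0.14. The median over members ran from -0.78 to 0.09 with 1 library left out, the extremes being without DKO replicate 2 and without DKO replicate 1. Over the 53 members tested, the log2 fold changes that changed sign were, within number 47347, 0.27 (Krtap10-4), 0.25 (Krtap11-1), 0.19 (Krtap12-1), 0.17 (Krtap13-1), 0.15 (Krtap14), 0.26 (Krtap15), 0.30 (Krtap16-1), 0.15 (Krtap19-4), 0.19 (Krtap19-5), 0.0535 (Krtap22-2), 0.0344 (Krtap24-1), 0.23 (Krtap26-1), 0.29 (Krtap29-1), 0.25 (Krtap3-1), 0.32 (Krtap3-2), 0.51 (Krtap3-3), 0.85 (Krtap31-1), 0.24 (Krtap4-1), 0.37 (Krtap4-16), 0.30 (Krtap4-8), 0.0859 (Krtap5-5), 0.26 (Krtap6-1) and 0.18 (Krtap9-1). With DESeq2 without DKO replicate 1 they were 0.24 (Krtap10-4), 0.17 (Krtap11-1), 0.10 (Krtap13-1), 0.18 (Krtap14), 0.25 (Krtap15), 0.21 (Krtap16-1), 0.21 (Krtap19-4), 0.16 (Krtap19-5), 0.0621 (Krtap19-9b), 0.0691 (Krtap21-1), 0.11 (Krtap22-2), 0.11 (Krtap26-1), 0.23 (Krtap29-1), 0.28 (Krtap3-1), 0.34 (Krtap3-2), 0.38 (Krtap3-3), 0.34 (Krtap4-1), 0.37 (Krtap4-16), 0.30 (Krtap4-8), 0.015 (Krtap5-4), 0.32 (Krtap6-1) and 0.20 (Krtap9-1). Under the replicate block they were -0.21 (Krtap1-4), -0.27 (Krtap2-4), -0.18 (Krtap4-2), -0.13 (Krtap4-6) and -0.13 (Krtap4-7) with edgeR and -0.25 (Krtap1-4), -0.30 (Krtap2-4), -0.21 (Krtap4-2), -0.15 (Krtap4-6) and -0.15 (Krtap4-7) with DESeq2. *Krtap2-4*, at 0.01, also changed sign with DESeq2 (-0.0113), size factors (-0.0121), total counts (-0.0684), no filter (-0.0258) and a minimum of 10 counts in every library (-0.0190), as did *Krtap1-4*, also at 0.01, under the same settings (-0.00777, -0.00765, -0.0662, -0.0213 and -0.0144) and *Krtap4-7* with total counts (-0.00734). With 1 library left out, ranges that cross 0 were Krtap1-4 -0.80 to 0.41, Krtap10-4 -0.94 to 0.24, Krtap11-1 -0.89 to 0.17, Krtap13-1 -0.63 to 0.10, Krtap14 -0.88 to 0.19, Krtap15 -0.72 to 0.25, Krtap16-1 -0.84 to 0.22, Krtap19-4 -0.71 to 0.21, Krtap19-5 -0.61 to 0.17, Krtap19-9a -0.73 to 0.00107, Krtap19-9b -0.61 to 0.0649, Krtap2-4 -0.68 to 0.43, Krtap21-1 -0.55 to 0.072, Krtap22-2 -0.81 to 0.12, Krtap26-1 -0.84 to 0.11, Krtap29-1 -0.67 to 0.23, Krtap3-1 -0.70 to 0.28, Krtap3-2 -0.70 to 0.34, Krtap3-3 -0.75 to 0.38, Krtap31-1 -1.01 to 0.39, Krtap4-1 -0.72 to 0.34, Krtap4-13 -0.17 to 0.86, Krtap4-16 -0.89 to 0.37, Krtap4-2 -0.72 to 0.51, Krtap4-6 -0.65 to 0.58, Krtap4-7 -0.60 to 0.44, Krtap4-8 -0.80 to 0.30, Krtap4-9 -0.58 to 0.48, Krtap5-4 -0.81 to 0.0176, Krtap6-1 -0.54 to 0.32 and Krtap9-1 -0.57 to 0.20. Among single members an adjusted p under 0.05 was reached only by *Krtap5-2* and *Krtap5-3* without the filter and by *Krtap19-3* with DESeq2 and the block (log2 fold change -0.87, adjusted p = 0.0381, under the fold limit). Depth limits *Krtap31-1* and *Krtap31-2*, with under 30 normalized counts in every library; 3 counts, the limit that 0 reads allow, are 0.170 to 0.266 CPM.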

Other observations

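In 3 members the WT mice differed by over 2-fold with WT replicate 3 highest at 100 or more counts: *Krtap5-2*, *Krtap5-3* and *Krtap24-1*. Keratins of the hair cuticle, the outer cell layer of the shaft, differed among themselves in the WT libraries. *Krt82* had 1037, 918 and 1543 TMM-normalized counts and *Krt32* had 835, 729 and 1063, both highest in WT replicate 3. *Krt40* had 347, 416 and 418, about equal in WT replicates 2 and 3, and *Krt39* had 709, 725 and 599.7, lowest in WT replicate 3. *Krt31*, a keratin of the cortex, had 2744, 2648 and 2897. Other members of cuticle subfamilies also differed, since *Krtap12-1* had 154, 186 and 248 and *Krtap5-1* had 271, 262 and 196, so that only the first was highest in WT replicate 3. These genes were chosen after their values were seen, and no test was run.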
